A study of Ovis aries with 12 samples.

Results

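Gene expression in the dorsal and the ventral hippocampus of chronically stressed ewes was compared with 6 of the 12 RNA sequencing libraries of the study, 3 per region. The members were chosen by their sample labels: the 3 libraries of dorsal hippocampus and the 3 of ventral hippocampus from ewes under chronic stress. The ewes were adults of the Ile-de-France breed, a French sheep breed. The other 6 libraries came from the same regions of ewes kept under control conditions and serve here as a comparator. No transgene, drug or other agent is named in the labels for any group, and what the chronic stress consisted of is not described in the sources used here. Each library was a pool of equal amounts of RNA from 2 ewes, so that a group of 3 libraries stands for 6 animals, and differences among individual ewes are partly hidden by pooling. The same ewes gave both regions, but the labels do not say that pools with the same number hold the same animals, and p-values treat the pools as independent samples. In bulk tissue, fewer cells of a type and less RNA per cell cannot be told apart.

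The hippocampus is a long, curved structure whose ends are wired differently. In rodents the dorsal part is known for its role in spatial memory, while the ventral part exchanges fibres with the amygdala, the hypothalamus and the prefrontal cortex and is known for its role in anxiety and in the control of the hormonal stress response. Many genes are known to be graded or sharply bounded along this long axis, and the subiculum is the output field of the hippocampus. The question asked of these 6 libraries was which genes set the poles apart in animals under stress, and whether that pattern differed from the one in control animals.

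Dorsal stress libraries 1 to 3 held 21244822, 19159056 and 12254743 gene counts and the corresponding ventral stress libraries 24951732, 24910994 and 33132246, so that every dorsal library was shallower than every ventral one. Levels are given as CPM, the usual depth-corrected counts, after scaling by the trimmed mean of M-values (TMM). A count of 3 corresponds to 0.0894 to 0.245 CPM in a single library, and levels below this are not reliable. CPM is not corrected for gene length, so levels are compared between libraries and not between genes. Genes were tested with the quasi-likelihood test of edgeR in 1 fit of all 12 libraries, with Benjamini-Hochberg adjustment over 17806 genes, and a gene is said to be called at an adjusted p under 0.05. A log2 fold change is positive where the level was higher in dorsal tissue, and its error is a standard error (SE).

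Of the 17806 tested genes 79 were called, or 0.444%, of which 64 were higher in ventral hippocampus (0.359% of tested genes) and 15 were higher in dorsal hippocampus (0.0842%). All 79 differed by more than 2-fold, and in each of them the 3 libraries of one region all lay above the 3 of the other. By more than 4-fold differed 45 ventral genes and 4 dorsal genes. Among called genes that have a symbol, the largest ventral log2 fold changes were those of RGS18, MYBPC1, ADCYAP1, FAP, POSTN, NXPH3 and CPLX3, in this order, and the largest dorsal ones those of FREM3, HSPA2, KCNH8 and WIPF3. RGS18 and MYBPC1 had few or no counts in the dorsal libraries, so that the size of their fold changes and their rank are uncertain. The placeholder gene LOC101120331, with 5, 4 and 3 counts in the ventral libraries, exceeded FREM3 on the dorsal side. Of the called genes 8 have only placeholder names, and 10 have a mean log2 CPM under 1 and thus few counts. At an unadjusted p under 0.05 stood 853 genes higher in ventral (4.79%) and 547 higher in dorsal tissue (3.07%). In 1366 tested genes (7.67%) all ventral libraries lay above all dorsal ones, and in 1080 (6.07%) all dorsal libraries lay above all ventral ones. Counts given for gene lists below are to be read against these shares and the shares called. The median log2 fold change of all tested genes was 0.01.

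**Figure D1:**
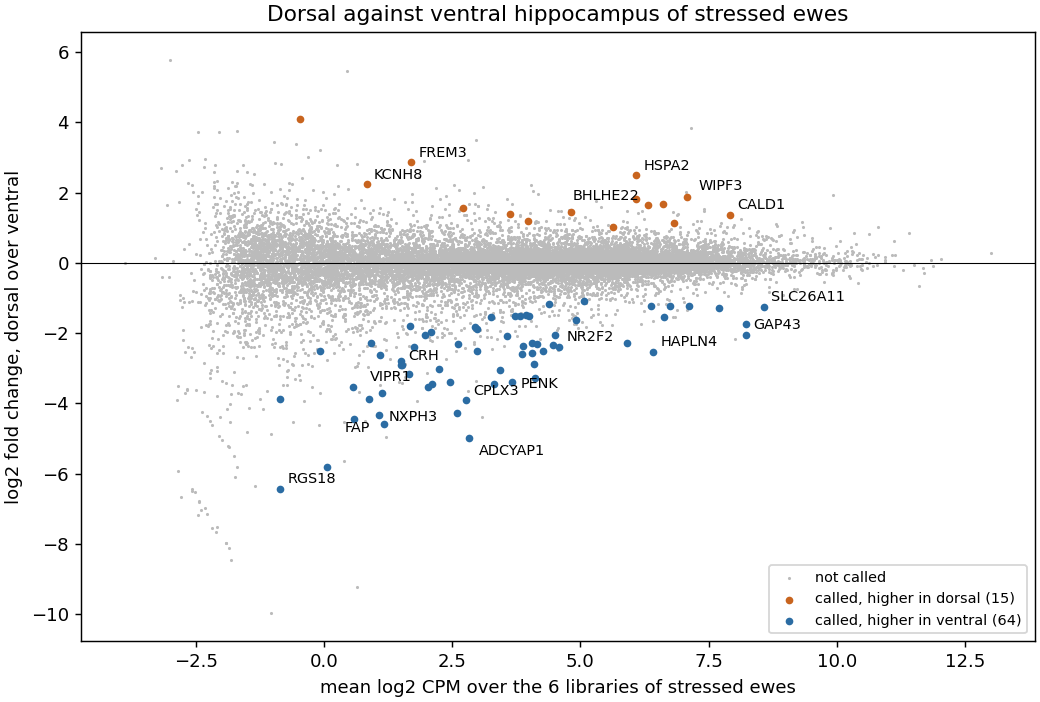
Each point is a gene, with its mean log2 CPM over the 6 libraries of stressed ewes on the horizontal axis and its log2 fold change, dorsal over ventral, on the vertical axis. The 64 called genes higher in ventral tissue (blue) reach larger differences than the 15 higher in dorsal tissue (orange), and the grey genes farthest from 0 at the left have few counts.

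The direction of these 79 genes was steadier than their calls. In a fit of the 6 stress libraries alone all 79 kept their sign and an unadjusted p under 0.05, but 0 genes were called by edgeR, with 531 dorsal and 851 ventral genes at an unadjusted p under 0.05. The number called changed with each library left out of the fit. It was 13, 1 and 2 without dorsal stress library 1, 2 or 3, and 42, 13 and 18 without ventral stress library 1, 2 or 3. The number was 46, 50 and 45 without dorsal control library 1, 2 or 3, and 159, 50 and 109 without ventral control library 1, 2 or 3. In each of these 12 fits all 79 genes kept their sign and an unadjusted p under 0.05. The 79 genes were chosen in these same libraries, and their regions did not overlap. A kept sign with 1 library left out was thus fixed in advance and is no separate support. ADCYAP1 alone kept its call in all 12, NR2F2 kept it in 11, and each of the others lost it in some. Among those that kept it in only 2 were CRH, CHRM4, EPHA8, LAYN, BHLHE22, KCNS2, HAPLN4 and BAIAP3. DESeq2 called 195 dorsal and 385 ventral genes, limma-voom 7 and 20.

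The libraries of one region differed from each other. The first principal component of the 6 libraries accounted for 50.89% of the variance without separating the regions, with dorsal libraries 1 to 3 at -80.41, 18.31 and 63.27 and ventral libraries 1 to 3 at -11.63, -58.87 and 69.33. Regions were parted by the second component, with 25.95% of the variance, where the dorsal libraries lay between -43.84 and -35.25 and the ventral ones at 20.66, 54.99 and 41.56. Ventral library 2 was thus farthest from the dorsal side and ventral library 1 nearest to it. The same order held in the called genes. Among the 64 ventral genes, ventral library 2 had the highest level in 51 and ventral library 1 the lowest in 44. Among the 15 dorsal genes, the highest ventral level was that of library 1 in 12 and the lowest that of library 2 in 11.

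Regional differences in the stressed ewes were close to those in control ewes, which were measured in other animals and other libraries. In control ewes 178 genes were called (1.00%), and 1544 (8.67%) had an unadjusted p under 0.05. All 79 genes called in stressed ewes had the same direction in control ewes, against 72.1% of all tested genes. All 79 also had groups that did not overlap and an unadjusted p under 0.05 in control ewes. Of the 79 genes 74 (93.7%) were called there, against 1.00% of all tested genes. Their median absolute log2 fold change was 2.31 in stressed and 2.37 in control ewes, and it was larger in stressed ewes in 39 of the 79. Of the 178 genes called in control ewes 74 (41.6%) were called in stressed ewes, and all 178 had the same sign. The conditions share 1 estimate of the spread but no library.

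**Figure D2:**
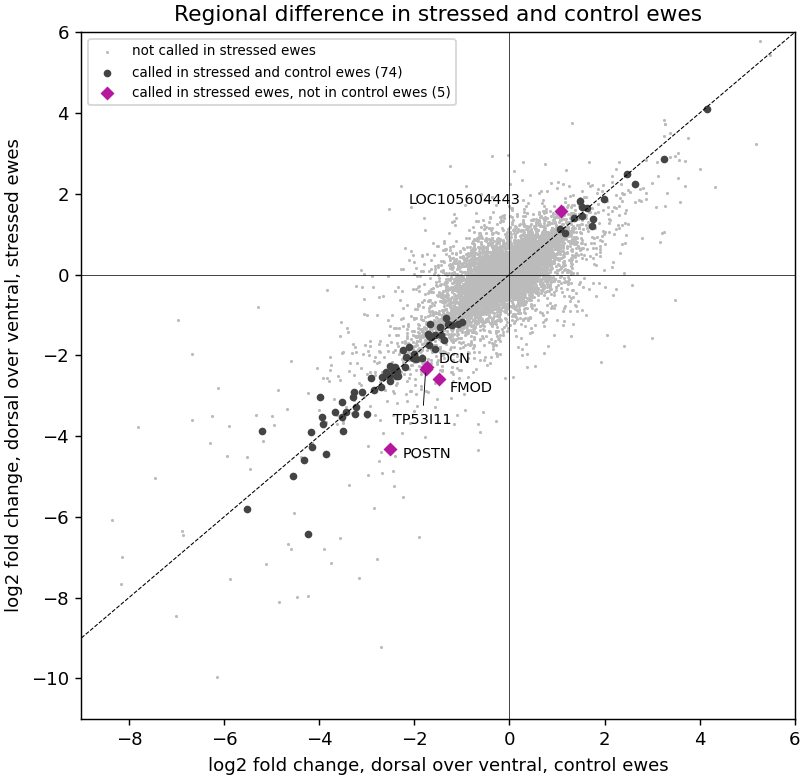
Each point is a tested gene, with its log2 fold change, dorsal over ventral, in control ewes on the horizontal axis and in stressed ewes on the vertical axis; the dashed line marks equal values. The 74 genes called in both conditions lie along the line, and the 5 called in stressed but not in control ewes (magenta diamonds) lie farther from 0 in stressed ewes.

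Neuropeptide genes were among the strongest regional differences. Of 34 tested genes for neuropeptides 3 were called, all higher in ventral hippocampus, where 0.359% of tested genes were. In 11 of the 34 every ventral library lay above every dorsal one (32.4%, against 7.67% of all tested genes), and in 2 the reverse held (5.88% against 6.07%). The median log2 fold change of the list was -0.70. ADCYAP1, which encodes the pituitary adenylate cyclase-activating peptide PACAP, a peptide known from stress and fear circuits, stood at 1.09, 1.01 and 1.72 CPM in dorsal libraries 1 to 3 and at 30.9, 54.8 and 34.9 CPM in ventral libraries 1 to 3. The lowest ventral library was thus far above the highest dorsal one. Its log2 fold change of -4.99 ± 0.40 (adjusted p = 0.00207) corresponds to a 31.9-fold higher ventral level, and it was -4.54 ± 0.39 in control ewes. ADCYAP1 overlaps the uncharacterised locus LOC121817722 in the RefSeq annotation, as 24 of the 76 called genes listed there overlap some other gene, and reads of overlapping genes cannot be told apart here. PENK, the precursor of the enkephalin opioids, gave 4.03, 3.35 and 4.49 CPM in dorsal and 32.9, 57.8 and 34.0 CPM in ventral libraries. Ventral library 2 was the highest here too, and the regions were far apart, with a log2 fold change of -3.40 ± 0.37 (adjusted p = 0.00801).

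CRH, the corticotropin-releasing hormone that starts the hormonal stress response from the hypothalamus and also acts as a transmitter in the hippocampus, stood at 1.24, 1.06 and 0.817 CPM in dorsal and 5.84, 12.96 and 4.89 CPM in ventral libraries. The regions did not overlap, and ventral library 2 was well above the other ventral ones. The log2 fold change was -2.91 ± 0.49 (adjusted p = 0.035), against -3.26 ± 0.49 in control ewes. With 1 library left out in turn, CRH kept its call in 2 of 12 fits, with a highest adjusted p of 0.202. The call was lost without any one of the 6 libraries of stressed ewes. It was also lost without any one dorsal control library and without ventral control library 2. Among the other fits described below, the call was lost with limma-voom, the replicate block, the stress libraries alone and the meningeal covariate. Other peptide genes did not pass. NTS, the precursor of neurotensin, had 2.79, 6.74 and 5.97 CPM in dorsal and 13.3, 15.1 and 22.03 CPM in ventral libraries (log2 fold change -1.71 ± 0.38, adjusted p = 0.0965). CORT, which encodes the somatostatin-like peptide cortistatin, gave -2.11 ± 0.58 (adjusted p = 0.18), and VIP, the vasoactive intestinal peptide of interneurons, -1.13 ± 0.38 (adjusted p = 0.323). In all 3 the ventral libraries lay above the dorsal ones.

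Genes for peptide receptors lay on the ventral side as well. Of 45 tested members 2 were called, both higher in ventral tissue, where 0.359% of all tested genes were. In 18 (40.0%, against 7.67% of all tested genes) every ventral library was above every dorsal one. The reverse held in 3 (6.67%, against 6.07%). The list median was -0.60. VIPR1, a receptor that binds both PACAP and vasoactive intestinal peptide, stood at 1.59, 1.27 and 0.735 CPM in dorsal and 10.3, 18.3 and 13.4 CPM in ventral libraries. That is a 11.5-fold difference with no overlap (log2 fold change -3.52 ± 0.41, adjusted p = 0.00822). TACR1, the receptor for substance P, stood at 1.04, 0.862 and 0.572 CPM in dorsal and 5.19, 3.12 and 3.91 CPM in ventral libraries. Here ventral library 1 was the highest, unlike in most ventral genes, and the log2 fold change was -2.28 ± 0.38 (adjusted p = 0.0321).

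HCRTR1, a receptor for the orexins of the hypothalamus, gave 3.83, 3.04 and 1.96 CPM in dorsal and 12.1, 22.4 and 13.4 CPM in ventral libraries without passing the test (log2 fold change -2.43 ± 0.51, adjusted p = 0.08). CCKBR, the brain receptor for cholecystokinin, gave -1.86 ± 0.39 (adjusted p = 0.0834). Among the partners of CRH, the receptor CRHR2 stood at 0.746, 0.862 and 1.39 CPM in dorsal and 2.48, 2.45 and 3.22 CPM in ventral libraries (-1.46 ± 0.50, adjusted p = 0.346), and the binding protein CRHBP, which holds CRH away from its receptors, at 4.13, 4.97 and 3.84 and 15.9, 20.0 and 20.3 CPM (-2.12 ± 0.59, adjusted p = 0.185). Neither overlapped between regions and neither was called. CRHR1, the main brain receptor for CRH, overlapped, with 4.93, 1.22 and 3.68 CPM in dorsal and 5.34, 5.97 and 3.91 CPM in ventral libraries (-0.63 ± 0.44, adjusted p = 1).

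**Figure D3:**
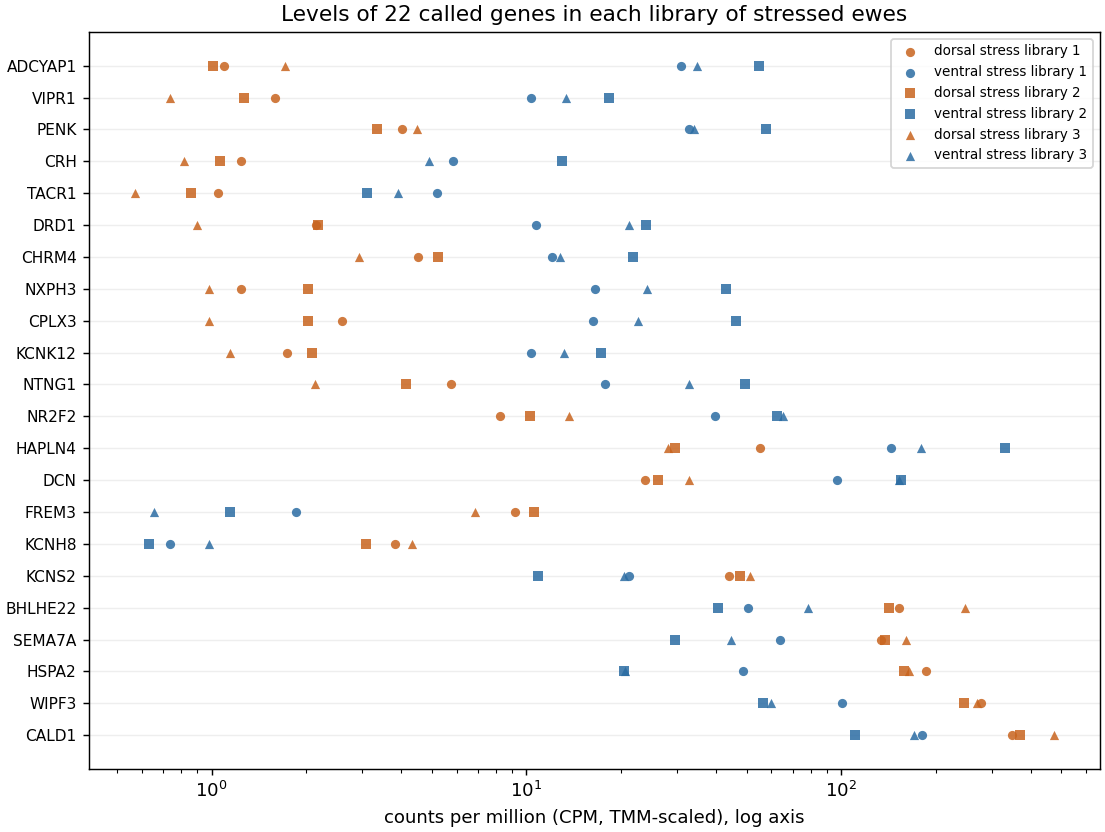
Each row is a called gene and each symbol a library of stressed ewes, with the level in CPM on a log axis; orange marks dorsal and blue ventral libraries, and the shape gives the library number. In every row the 3 libraries of one region lie apart from the 3 of the other, and ventral library 2 (blue squares) is often the farthest from the dorsal libraries.

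Monoamine and acetylcholine receptors each included a called ventral gene. Of 23 tested serotonin, dopamine and adrenergic receptors 1 was called. In 11 (47.8%, against 7.67% of all tested genes) every ventral library lay above every dorsal one. The reverse held in 1 (4.35%, against 6.07%), and the list median was -0.74. DRD1, the D1 dopamine receptor, stood at 2.14, 2.18 and 0.899 CPM in dorsal and 10.8, 24.0 and 21.2 CPM in ventral libraries, so that ventral library 1 came nearest to the dorsal levels. Its log2 fold change was -3.40 ± 0.45 (adjusted p = 0.0159), a 10.6-fold difference. HTR1B and HTR1D, closely related inhibitory serotonin receptors, had log2 fold changes of -3.42 ± 0.85 (adjusted p = 0.134) and -2.57 ± 0.67 (adjusted p = 0.151). HTR1B varied within the ventral region from 3.99 CPM in library 1 to 19.9 CPM in library 3. Of 16 tested genes for acetylcholine receptors and enzymes 1 was called, in 3 (18.8%) every ventral library lay above every dorsal one and in 1 (6.25%) the reverse held, and the list median was -0.24. CHRM4, the inhibitory M4 muscarinic receptor, gave 4.53, 5.22 and 2.94 CPM in dorsal and 12.0, 21.9 and 12.8 CPM in ventral libraries (log2 fold change -1.87 ± 0.34, adjusted p = 0.0472). The related CHRM2 gave -1.85 ± 0.60 (adjusted p = 0.297).

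PENK and DRD1 are also markers of the striatum, a neighbouring structure. The 12 tested striatal markers did not share their direction: 2 were called, both higher in ventral tissue, 6 had positive and 6 negative log2 fold changes, and the list median was 0.02. The summed level of the list was 199.8 to 263 CPM in dorsal and 225 to 259.7 CPM in ventral libraries, and these ranges overlap. PPP1R1B, the phosphoprotein DARPP-32 of striatal projection neurons, stood at 129, 74.7 and 71.3 CPM in dorsal and 58.5, 57.7 and 45.6 CPM in ventral libraries, and DRD2, the D2 dopamine receptor, at 1.04, 1.62 and 1.55 and 0.542, 0.632 and 0.954 CPM. Both were thus higher in every dorsal library, opposite to PENK and DRD1, without being called (adjusted p = 0.538 and 1). PPP1R1B is a large part of the summed level. RARB, another marker of the list, went with PENK and DRD1, at 8.21, 7.20 and 7.35 against 12.1, 20.0 and 15.4 CPM (-1.06 ± 0.28, adjusted p = 0.159). In 3 of the 12 markers every ventral library was above every dorsal one, and in 3 the reverse held. The part of striatal tissue in the PENK and DRD1 levels was not tested.

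For receptors of GABA, glycine and glutamate fewer differences passed. Among 21 GABA and glycine receptor subunits and 25 glutamate receptors 0 were called by edgeR, with 5 and 8 at an unadjusted p under 0.05. DESeq2 called 3 and 2 of them and limma-voom 0, and the list medians were -0.44 and -0.07. GABRE, the epsilon subunit of the GABA-A receptor, gave -1.55 ± 0.32 (adjusted p = 0.0773), and the presynaptic metabotropic glutamate receptors GRM8 and GRM2 gave -1.79 ± 0.41 and -1.22 ± 0.37 (adjusted p = 0.0997 and 0.25). These 3 genes were higher in every ventral library. Of the 8 glutamate receptors at an unadjusted p under 0.05, 5 were higher in ventral and 3 in dorsal tissue. GRIN2A was higher in every dorsal library, at 179.9, 212.2 and 300.6 against 104.3, 83.8 and 162.5 CPM (0.98 ± 0.33, adjusted p = 0.33).

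Genes of transmitter release included large differences in a few members. Of 55 tested genes of vesicle release and its partners 2 were called. In 13 (23.6%, against 7.67% of all tested genes) every ventral library was above every dorsal one. The list median of -0.07 was near that of all genes. NXPH3, a secreted neurexophilin that binds neurexins at synapses, stood at 1.24, 2.03 and 0.981 CPM in dorsal and 16.5, 43.1 and 24.1 CPM in ventral libraries. CPLX3, a complexin that clamps and aids vesicle fusion, stood at 2.59, 2.03 and 0.981 and 16.3, 46.4 and 22.6 CPM. In both genes ventral library 2 was the highest, and the lowest ventral library remained far above the highest dorsal one. The log2 fold changes were -4.28 ± 0.48 for NXPH3 (adjusted p = 0.00801) and -3.91 ± 0.46 for CPLX3 (adjusted p = 0.00822), 19.4-fold and 14.99-fold. NXPH4, a relative of NXPH3, gave -3.25 ± 0.78 (adjusted p = 0.122), and STX1A, a syntaxin of the fusion machinery, -0.80 ± 0.17 (adjusted p = 0.0858). BAIAP3, a regulator of exocytosis of dense core vesicles, was called at -2.30 ± 0.41 (adjusted p = 0.0454), with 10.2, 8.31 and 6.62 CPM in dorsal and 31.1, 64.5 and 28.2 CPM in ventral libraries.

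Signalling genes on the ventral side included GNG4, a G protein gamma subunit (46.8, 47.3 and 70.5 CPM in dorsal, 115, 120.2 and 147 CPM in ventral libraries, log2 fold change -1.22 ± 0.20). NCALD, the calcium sensor neurocalcin delta, differed to a like extent (139.5, 116 and 149 against 258, 372 and 364 CPM, -1.30 ± 0.19). GRB14, an adaptor that binds the insulin receptor, gave -2.08 ± 0.27, RASSF5, a Ras effector, -2.52 ± 0.36, the small GTPase gene RASL11B -2.27 ± 0.33, and VAV2, a guanine nucleotide exchange factor, -1.08 ± 0.19. Their adjusted p-values were 0.0308, 0.0203, 0.0138, 0.0203, 0.0203 and 0.0389. RGS18, a regulator of G protein signalling, had 2 counts in dorsal library 1 and 0 in the other dorsal libraries, against 1.70, 4.86 and 4.17 CPM in the ventral libraries (adjusted p = 0.0295). With 1 library left out in turn, its log2 fold change ranged from -9.77 to -5.83, and it kept its call in 4 of 12 fits.

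Potassium channel genes moved both ways. Of 78 tested subunits 1 was called higher in ventral and 2 higher in dorsal tissue. The regions did not overlap in 13 (16.7%) and 12 (15.4%) in those directions, against 7.67% and 6.07% of all tested genes. The list median was -0.02. KCNK12, a tandem pore subunit of the leak channel family, stood at 1.74, 2.08 and 1.14 CPM in dorsal and 10.4, 17.3 and 13.1 CPM in ventral libraries (log2 fold change -3.02 ± 0.34, adjusted p = 0.00801). On the dorsal side KCNH8, a voltage-gated subunit of the ether-a-go-go family, stood at 3.83, 3.09 and 4.33 CPM in dorsal and 0.735, 0.632 and 0.984 CPM in ventral libraries (2.25 ± 0.38, adjusted p = 0.0356). KCNS2, a modulatory subunit that forms no channel by itself, stood at 43.9, 47.7 and 51.2 and 21.2, 10.9 and 20.4 CPM (1.44 ± 0.25, adjusted p = 0.0422). The dorsal levels of KCNH8 and KCNS2 varied little, while ventral library 2 was the lowest for both. KCNG1, another modulatory subunit, had a large log2 fold change of -3.66 ± 0.76 that did not pass (adjusted p = 0.0797), and its ventral levels ranged from 13.9 to 52.9 CPM. KCNK4 gave 0.99 ± 0.20 (adjusted p = 0.0742). Of 39 sodium, calcium and HCN channel genes 0 were called by edgeR, with 8 at an unadjusted p under 0.05, 4 called by DESeq2 and 0 by limma-voom. Among transport proteins that set ion gradients, FXYD6, a regulator of the sodium pump, was higher in ventral tissue (-1.74 ± 0.31, adjusted p = 0.0455), as was SLC24A3, a potassium-dependent sodium-calcium exchanger (-1.23 ± 0.22, adjusted p = 0.0464).

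Genes that guide axons and hold cells together differed as well. Of 73 tested axon guidance genes 3 were called higher in ventral and 1 higher in dorsal tissue. In 17 (23.3%, against 7.67% of all tested genes) every ventral library was above every dorsal one. In 10 (13.7%, against 6.07%) the reverse held, and the median was -0.20. NTNG1, a membrane-bound netrin that binds a partner on axons and also marks the subiculum and the thalamus, stood at 5.77, 4.16 and 2.12 CPM in dorsal and 17.8, 49.3 and 32.9 CPM in ventral libraries. Its levels spread widely within both regions without overlapping (-3.04 ± 0.45, adjusted p = 0.0203), and in control ewes the log2 fold change was -3.99 ± 0.46. EFNA5, an ephrin that repels axons, gave -2.31 ± 0.35 (adjusted p = 0.0257), and EPHA8, a receptor of the ephrin family, -1.80 ± 0.32 (adjusted p = 0.0455). SEMA7A, a semaphorin anchored to the membrane, went the other way, with 133, 138 and 161 CPM in dorsal and 63.8, 29.6 and 44.6 CPM in ventral libraries (1.64 ± 0.28, adjusted p = 0.0356).

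Guidance genes that did not pass were SLIT2, a secreted repellent (-1.77 ± 0.37, adjusted p = 0.0831), the semaphorin gene SEMA3B (-1.52 ± 0.29, adjusted p = 0.0594) and its receptor family member NRP2 (-0.93 ± 0.19, adjusted p = 0.0742). All 3 were higher in every ventral library. GAP43, a protein of growth cones and presynaptic plasticity, stood at 193, 139 and 122.7 CPM in dorsal and 487, 818 and 573 CPM in ventral libraries. That is a 4.13-fold higher ventral level (-2.05 ± 0.29, adjusted p = 0.0203). Of 42 cadherins and protocadherins 1 was called, CDH18, with 5.62, 5.83 and 5.23 against 13.5, 20.04 and 15.1 CPM (-1.54 ± 0.22, adjusted p = 0.0203), and CDH13 gave -1.69 ± 0.32 (adjusted p = 0.0594). Adhesion genes outside that list were PTPRT, a receptor tyrosine phosphatase (-1.47 ± 0.27, adjusted p = 0.0464), the lectin gene CHODL (-2.63 ± 0.41, adjusted p = 0.0259) and CDHR1, a cadherin-related gene known from photoreceptors (-2.06 ± 0.33, adjusted p = 0.0308), all higher in ventral tissue.

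Markers of the hippocampal poles known from rodents were found mainly on one side. Of 13 tested markers of the rodent ventral pole 2 were called, NR2F2 and DCN, and the median was -0.99. DCN is described below with the proteoglycans. Higher in every ventral library were 8 (61.5%, against 7.67% of all tested genes). NR2F2, a nuclear receptor that specifies the ventral pole and a class of interneurons, stood at 8.26, 10.3 and 13.6 CPM in dorsal and 39.8, 62.7 and 65.4 CPM in ventral libraries. The difference of 5.23-fold (-2.39 ± 0.26, adjusted p = 0.00801) was the same in size in control ewes (-2.37 ± 0.26). NNAT, an imprinted neuronal gene, gave 174, 95.0 and 109 and 454, 790.5 and 449 CPM (-2.16 ± 0.41, adjusted p = 0.0594), and the transcription factor gene TOX3 -1.87 ± 0.48 (adjusted p = 0.147). Of 7 tested markers of the rodent dorsal pole 0 were called by edgeR, 3 by DESeq2 and 0 by limma-voom, 4 had an unadjusted p under 0.05, and their median of -0.66 lay on the ventral side. Of these markers 4 (57.1%) were higher in every ventral library and 1 (14.3%) in every dorsal one. CDH13, CCN3 and PDZRN3 were among those higher in every ventral library, at -1.69 ± 0.32, -1.38 ± 0.33 and -0.81 ± 0.30 (adjusted p = 0.0594, 0.12 and 0.403). SPATA13 stood at 81.4, 90.2 and 99.2 CPM in dorsal and 58.0, 41.6 and 51.2 CPM in ventral libraries (0.84 ± 0.18, adjusted p = 0.0834). WFS1, the best known dorsal marker in the mouse, overlapped between regions, with 82.1, 53.4 and 38.7 CPM in dorsal and 77.8, 136 and 61.7 CPM in ventral libraries (-0.66 ± 0.46, adjusted p = 1).

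Among the fields, the subiculum list lay on the ventral side: of 10 tested members 1 was called, and the median was -0.96. Higher in every ventral library were 6 (60%, against 7.67% of all tested genes). Beside NTNG1, the vesicular glutamate transporter SLC17A6 gave 3.78, 6.03 and 11.8 CPM in dorsal and 22.8, 40.1 and 67.9 CPM in ventral libraries (-2.60 ± 0.72, adjusted p = 0.186), and the zinc finger gene TSHZ2 gave -1.91 ± 0.43 (adjusted p = 0.0965). NTNG1 and SLC17A6 are thalamic markers too. All 8 tested thalamic markers had negative log2 fold changes, and their summed level was 114 to 142 CPM in dorsal and 231 to 446 CPM in ventral libraries. Markers of the amygdala summed to 88.0 to 103 CPM in dorsal and 175 to 184 CPM in ventral libraries. Of the 8 tested amygdala markers 5 had negative and 3 positive log2 fold changes. By edgeR 0 of them were called, with 5 at an unadjusted p under 0.05, and DESeq2 called 2 and limma-voom 0. PRKCD belongs to both the thalamic and the amygdala list, so that the sums of these lists are not independent. The part of these neighbouring tissues in the ventral levels was not tested.

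Markers of CA1, CA2 and CA3 pyramidal cells were mixed. MPPED1 was the 1 called of 8 tested CA1 markers, with 73.5, 67.3 and 69.6 CPM in dorsal and 139.6, 189.7 and 164 CPM in ventral libraries (-1.23 ± 0.20, adjusted p = 0.0308). The CA2 markers RGS14 and PCP4 went opposite ways, with RGS14 at 435, 206 and 219.7 CPM in dorsal and 109, 60.0 and 44.6 CPM in ventral libraries (2.01 ± 0.45, adjusted p = 0.0965) and PCP4 at 37.8, 23.3 and 23.5 and 57.1, 155 and 73.4 CPM (-1.75 ± 0.40, adjusted p = 0.0998). Of 13 dentate granule cell markers 0 were called by edgeR, 1 by DESeq2 and 0 by limma-voom, with 5 at an unadjusted p under 0.05 and a median of 0.33. PROX1, the transcription factor that defines granule cells, stood at 4.18, 18.2 and 37.2 CPM in dorsal and 4.99, 1.34 and 13.1 CPM in ventral libraries and overlapped (1.60 ± 1.07, adjusted p = 1). In each region its level was lowest in the library with the lowest first principal component and highest in the one with the highest. DSP, a desmosomal protein of granule cells, went the other way (-2.18 ± 0.54, adjusted p = 0.132). The dorsal columns of the deposited table carry the prefix DG, and the labels leave unsaid if it means the dentate gyrus. With PROX1 at 4.18 CPM in dorsal library 1 and 13.1 CPM in ventral library 3, this marker did not part the regions.

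Transcription factors of neurons gave few calls. Of 67 tested homeobox genes 0 were called by edgeR, 6 by DESeq2 and 0 by limma-voom, with 18 at an unadjusted p under 0.05. ONECUT2 stood at 5.87, 12.4 and 14.7 CPM in dorsal and 1.82, 0.909 and 1.64 CPM in ventral libraries (2.91 ± 0.57, adjusted p = 0.0672). LHX9, a LIM homeobox gene, had 0 counts in all dorsal libraries against 15, 29 and 58 counts in the ventral ones, a level at least 20-fold higher in ventral tissue when set against 3 counts over the dorsal group (adjusted p = 0.13). BARX2 had 1 count in the dorsal libraries and 19, 8 and 17 in the ventral ones (adjusted p = 0.109). BHLHE22, a basic helix-loop-helix factor of cortical excitatory neurons, was called in dorsal tissue, with 152, 142 and 246 CPM in dorsal and 50.5, 40.5 and 78.5 CPM in ventral libraries (1.67 ± 0.30, adjusted p = 0.0455). It was the 1 called of 14 tested excitatory identity genes, among which NEUROD2 gave 1.46 ± 0.44 (adjusted p = 0.238) and the transporter SLC17A7 0.47 ± 0.21 (adjusted p = 0.616). LDB2, which bridges LIM homeobox proteins, was called in ventral tissue (5.72, 7.25 and 6.37 against 29.99, 48.8 and 62.4 CPM, -2.87 ± 0.51, adjusted p = 0.0455).

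Markers of inhibitory neurons included 0 genes called by edgeR, 4 by DESeq2 and 0 by limma-voom, with 7 at an unadjusted p under 0.05. Of 24 tested members 8 (33.3%) were higher in every ventral library and 1 (4.17%) in every dorsal one, and the median was -0.45. Over all tested genes these shares were 7.67% and 6.07%. LHX6, a transcription factor of interneurons, gave 19.8, 17.99 and 21.0 CPM in dorsal and 33.9, 35.5 and 41.5 CPM in ventral libraries (-0.92 ± 0.19, adjusted p = 0.0773). GAD1, which makes GABA, differed less, at 114, 126 and 129 and 183, 174 and 202 CPM (-0.60 ± 0.14, adjusted p = 0.103). NDNF, a marker of neurogliaform cells, gave -1.33 ± 0.27 (adjusted p = 0.0773), whereas LAMP5, which marks the same class, gave 0.74 ± 0.19 (adjusted p = 0.136) and was higher in every dorsal library.

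Matrix lists held few called genes. Of 44 tested collagens 1 was called, and 18 (40.9%) were higher in every ventral library against 5 (11.4%) in every dorsal one, with a median of -0.43. Over all tested genes these shares were 7.67% and 6.07%. COL13A1, a collagen with a membrane anchor, stood at 11.2, 6.03 and 7.44 CPM in dorsal and 43.8, 56.1 and 40.1 CPM in ventral libraries (-2.50 ± 0.29, adjusted p = 0.00822). COL6A5 and COL14A1 gave -1.79 ± 0.34 and -1.47 ± 0.28 (adjusted p = 0.0594 and 0.0624), and COL17A1 went the other way at 1.28 ± 0.25 (adjusted p = 0.0651). Of 12 small leucine-rich proteoglycans, which bind collagen fibrils and growth factors, 2 were called and 9 (75.0%) were higher in every ventral library, with a median of -1.08. DCN, decorin, stood at 23.7, 26.2 and 32.9 CPM in dorsal and 96.9, 154 and 152 CPM in ventral libraries (-2.29 ± 0.40, adjusted p = 0.0417), and FMOD, fibromodulin, at 8.06, 5.63 and 4.33 and 38.7, 41.8 and 28.1 CPM (-2.59 ± 0.44, adjusted p = 0.0377). EPYC, epiphycan, had 0 counts in the dorsal libraries and 35, 104 and 240 in the ventral ones. Its ventral level was at least 73-fold higher when set against 3 counts over the dorsal group, and it missed the threshold (adjusted p = 0.054).

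Other called genes of the matrix and the cell surface, picked here from the called genes and not from 1 list, are POSTN, FAP, THBS4, THBS2, LAYN and HAPLN4. POSTN, periostin, a secreted partner of collagen, stood at 0.348, 0.608 and 0.409 CPM in dorsal and 12.7, 9.76 and 5.13 CPM in ventral libraries, so that ventral library 1 was the highest (-4.32 ± 0.66, adjusted p = 0.0259). FAP, a surface protease of activated fibroblasts, gave 0.348, 0.811 and 0.245 CPM in dorsal and 6.62, 19.9 and 8.74 CPM in ventral libraries (-4.60 ± 0.60, adjusted p = 0.0145), with ventral library 2 far above the others. The thrombospondins THBS4 and THBS2 gave -2.79 ± 0.42 and -1.84 ± 0.31 (adjusted p = 0.0245 and 0.0376), and LAYN, a receptor for hyaluronan, -1.50 ± 0.27 (adjusted p = 0.0454). HAPLN4, a link protein of the perineuronal nets around inhibitory neurons and synapses, stood at 55.1, 29.6 and 28.2 CPM in dorsal and 144, 330.3 and 179 CPM in ventral libraries (-2.53 ± 0.44, adjusted p = 0.0402). It was the 1 called of 15 tested net genes, and ACAN, the aggrecan core protein of the nets, gave -1.23 ± 0.37 (adjusted p = 0.245).

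The FRAS1 and FREM family, whose products join basement membranes to the tissue below, was split between the regions. FRAS1 was higher in ventral tissue, at 5.52, 7.10 and 7.19 CPM in dorsal and 24.6, 30.04 and 47.4 CPM in ventral libraries (-2.37 ± 0.38, adjusted p = 0.0295). FREM3 was higher in dorsal tissue, at 9.20, 10.5 and 6.86 and 1.86, 1.15 and 0.656 CPM, a 7.29-fold difference (2.87 ± 0.43, adjusted p = 0.0234). FREM1 went the same way as FREM3, at 28.9, 32.0 and 45.8 CPM in dorsal and 9.91, 4.74 and 11.4 CPM in ventral libraries, without passing (2.03 ± 0.41, adjusted p = 0.0741). In control ewes the log2 fold changes of the 3 genes were -2.45 ± 0.38, 3.25 ± 0.43 and 2.54 ± 0.41. FREM3 overlaps SMARCA5 in the RefSeq annotation.

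Markers of meningeal fibroblasts, the cells of the brain's coverings, were higher in the same ventral libraries. Of the 11 tested markers all 11 were higher in every ventral library, 2 were called by edgeR, 9 by DESeq2 and 0 by limma-voom, and the median was -1.79. Their summed level was 164 to 176 CPM in dorsal and 444 to 571 CPM in ventral libraries of stressed ewes, and 145 to 243 and 318 to 620.3 CPM in those of control ewes. SLC22A8, an organic anion transporter of the meninges and the blood-brain barrier, stood at 4.28, 3.09 and 1.88 CPM in dorsal and 27.8, 44.1 and 30.2 CPM in ventral libraries (-3.45 ± 0.59, adjusted p = 0.0377), and FMOD is the other called member. COL1A1 and COL1A2, the chains of fibrillar type I collagen, gave -1.46 ± 0.38 and -1.38 ± 0.28 (adjusted p = 0.15 and 0.0742), ALDH1A2, which makes retinoic acid, -2.26 ± 0.50 (adjusted p = 0.0923), and the GABA transporter SLC6A13 -1.43 ± 0.32 (adjusted p = 0.0965). Smooth muscle and pericyte markers summed to 265 to 318 CPM in dorsal and 376 to 384 CPM in ventral libraries.

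A fit with the mean log2 CPM of the meningeal list as a covariate was added after the data were seen. This mean nearly coincides with region, and the median SE of the 79 genes rose from 0.35 to 0.72. With it 0 genes were called by edgeR, all 79 kept their sign, 31 had an unadjusted p under 0.05, and the log2 fold changes shrank to a median of 69.5% of their size. The log2 fold change became -0.44 for FMOD, -0.71 for SLC22A8 and -0.37 for THBS2, of which FMOD and SLC22A8 are members of the list, and -2.44 for POSTN, -1.69 for DCN, -1.24 for COL13A1 and -2.07 for HAPLN4. Beyond these values the part of meningeal tissue in the result was not tested.

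**Figure D4:**
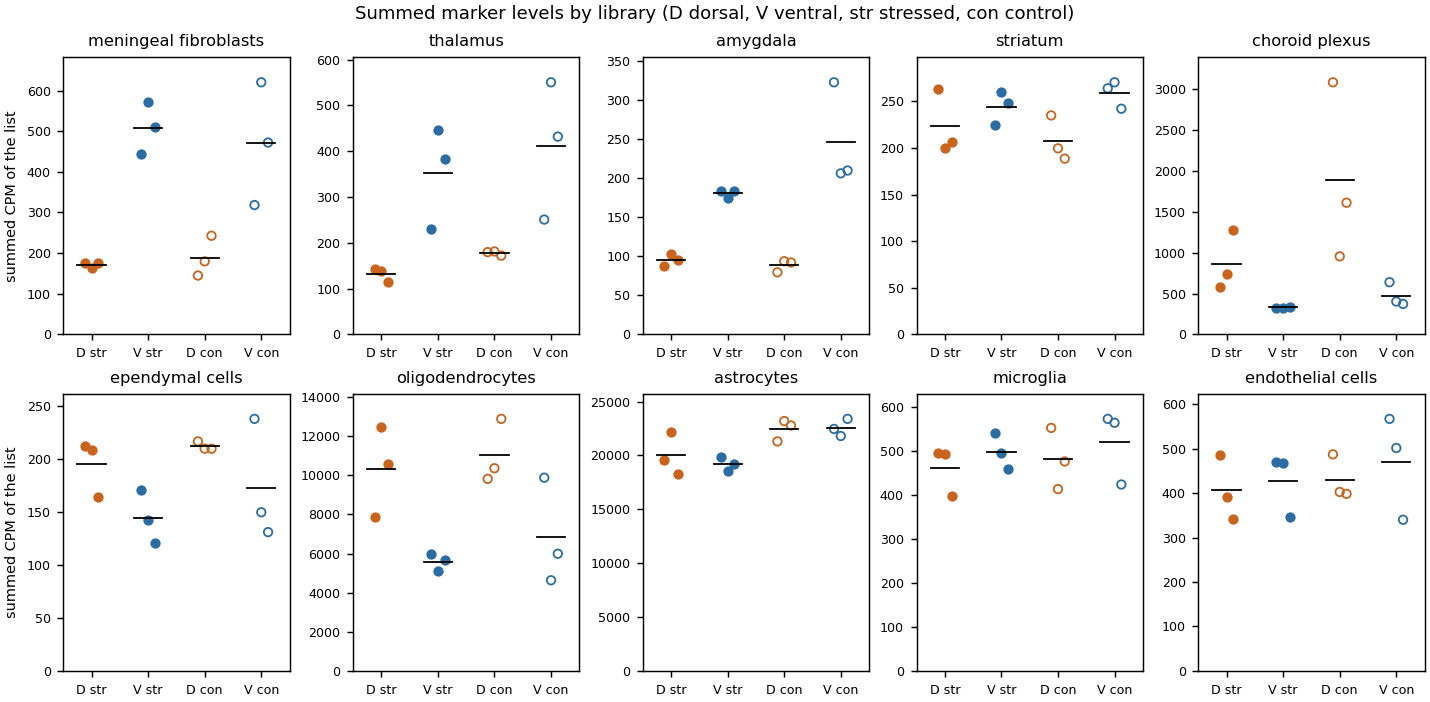
Summed CPM of 10 marker lists in each library, with dorsal (D) and ventral (V) hippocampus of stressed (str, filled) and control (con, open) ewes; each circle is a library and each bar the mean of 3. The sums of meningeal, thalamic and amygdala markers were higher in every ventral than in every dorsal library of stressed ewes, those of oligodendrocyte and choroid plexus markers were lower, the latter with TTR as a large part, and astrocyte, microglia, endothelial and striatal sums overlapped.

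The dorsal side held 15 called genes. HSPA2, a member of the heat shock protein 70 chaperone family, stood at 185, 159 and 164 CPM in dorsal and 48.9, 20.4 and 20.6 CPM in ventral libraries, a 5.65-fold difference (2.50 ± 0.43, adjusted p = 0.0394). Ventral library 1 had more than the other ventral libraries, and the dorsal levels were close to each other. HSPA2 was the 1 called of 38 tested heat shock genes, whose median was near 0 (-0.01, and 0.00 with RLE size factors). WIPF3, which binds regulators of actin assembly, gave 277, 246 and 269.9 CPM in dorsal and 100.4, 56.2 and 59.8 CPM in ventral libraries (1.87 ± 0.29, adjusted p = 0.0279), and CALD1, caldesmon, which binds actin and myosin, 347, 371 and 472 and 180.2, 111 and 170.5 CPM (1.37 ± 0.24, adjusted p = 0.0389). In both genes the lowest dorsal library was above the highest ventral one by a wide margin.

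ZDHHC22, of the enzyme family that attaches palmitate to proteins, was almost equal in the dorsal libraries, at 167, 168 and 167 CPM, and stood at 69.6, 67.5 and 93.1 CPM in the ventral ones (1.12 ± 0.16, adjusted p = 0.0203). HBEGF, a growth factor of the epidermal growth factor family, gave 26.1, 21.4 and 23.9 and 12.8, 9.25 and 9.15 CPM (1.20 ± 0.19, adjusted p = 0.0305). PARD3, a scaffold of cell polarity, had the smallest log2 fold change of all called genes, 1.02 ± 0.17 (adjusted p = 0.032), and TMEM201, a protein of the inner nuclear membrane, gave 1.40 ± 0.26 (adjusted p = 0.0472). FREM3, KCNH8, KCNS2, SEMA7A and BHLHE22, described above, and 3 genes with placeholder names complete the list. Of these LOC105604063 stood at 136, 125 and 124.3 CPM in dorsal and 46.9, 28.4 and 33.6 CPM in ventral libraries (1.82 ± 0.21, adjusted p = 0.00801), and LOC101120331 had the largest log2 fold change of the dorsal side, 4.11 ± 0.60, at 1.54, 3.14 and 3.02 and 0.193, 0.158 and 0.0894 CPM (adjusted p = 0.0203). The ventral levels of LOC101120331 rest on 5, 4 and 3 counts, so that the size of its difference is uncertain.

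Several called ventral genes belong to metabolism, transport and the cytoskeleton. ASS1, argininosuccinate synthase, which makes the precursor of arginine, stood at 6.87, 4.87 and 5.15 CPM in dorsal and 42.0, 77.3 and 45.2 CPM in ventral libraries, 9.72-fold higher in ventral tissue (-3.28 ± 0.35, adjusted p = 0.00801). SLC7A8, a carrier of neutral amino acids, was close to constant within each region, at 14.2, 13.7 and 14.1 and 31.0, 34.2 and 29.5 CPM (-1.17 ± 0.17, adjusted p = 0.0203). SLC26A11, an anion exchanger, stood at 290.4, 214 and 247 CPM in dorsal and 536, 639 and 607 CPM in ventral libraries (-1.25 ± 0.17, adjusted p = 0.0159). SFXN3, a mitochondrial carrier, gave -1.52 ± 0.21 (adjusted p = 0.0163).

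MYBPC1, a myosin-binding protein of slow muscle, had 4, 0 and 2 counts in the dorsal libraries and 130, 196 and 248 in the ventral ones (-5.80 ± 0.78, adjusted p = 0.0159). MYH15, a myosin heavy chain, gave -3.87 ± 0.65 (adjusted p = 0.0363), KRT7, a keratin of simple epithelia, -3.54 ± 0.52 (adjusted p = 0.0203), BFSP2, a filament protein of the lens, -3.46 ± 0.62 (adjusted p = 0.0464), and SHROOM3, which shapes the apical cytoskeleton, -1.96 ± 0.30 (adjusted p = 0.0259). Each of these was higher in every ventral library. CFB, complement factor B, stood at 19.9, 17.1 and 15.2 CPM in dorsal and 48.0, 65.2 and 47.3 CPM in ventral libraries (-1.62 ± 0.25, adjusted p = 0.0259), FCER2, the low-affinity receptor for immunoglobulin E, gave -2.52 ± 0.42 (adjusted p = 0.0321), and ECEL1, an endopeptidase of neurons, -3.16 ± 0.56 (adjusted p = 0.0454). TMIE, known from the transduction complex of hair cells, gave -3.69 ± 0.58 (adjusted p = 0.0287). VAT1L, SEL1L3 and C2H2orf80 were called as well, at -1.55 ± 0.22, -1.50 ± 0.25 and -2.90 ± 0.46 (adjusted p = 0.0203, 0.0308 and 0.029). A further 5 called ventral genes have placeholder names.

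Genes of the corticosteroid response gave no call by edgeR. Of 16 tested receptors and chaperones and of 17 glucocorticoid-induced genes 0 were called by edgeR, with 1 and 2 at an unadjusted p under 0.05, 1 and 0 called by DESeq2, 0 by limma-voom, and medians of 0.02 and 0.14. NR3C1, the glucocorticoid receptor, stood at 31.1, 50.5 and 65.9 CPM in dorsal and 40.0, 45.8 and 76.7 CPM in ventral libraries, with wide overlap (-0.14 ± 0.42, adjusted p = 1). NR3C2, the mineralocorticoid receptor, which binds cortisol with higher affinity, was higher in every dorsal library, at 81.2, 92.6 and 122.8 against 54.8, 39.8 and 60.1 CPM, without passing (0.94 ± 0.24, adjusted p = 0.144). FKBP5, a chaperone that glucocorticoids induce and that dampens their receptor, stood at 21.7, 32.3 and 39.5 and 27.1, 27.2 and 30.5 CPM (0.14 ± 0.43, adjusted p = 1). CDKN1A, an inhibitor of the cell cycle, gave 1.31 ± 0.43 (adjusted p = 0.307).

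Activity-dependent genes did not share a direction. Of 24 immediate early genes 0 were called by edgeR, 3 by DESeq2 and 0 by limma-voom, and 7 had an unadjusted p under 0.05, 4 higher in ventral and 3 higher in dorsal tissue. FOS stood at 13.3, 17.1 and 22.2 CPM in dorsal and 36.5, 58.3 and 53.6 CPM in ventral libraries (-1.50 ± 0.39, adjusted p = 0.153), and NPAS4, a transcription factor induced by calcium entry in neurons, at 2.74, 2.38 and 3.43 and 7.08, 9.17 and 17.9 CPM (-2.004 ± 0.55, adjusted p = 0.185). NR4A1 gave -1.24 ± 0.40 (adjusted p = 0.301) and the phosphatase DUSP5 1.35 ± 0.40 (adjusted p = 0.237). BDNF, the neurotrophin that neuronal activity induces, was higher in every dorsal library, at 33.4, 38.4 and 56.5 CPM against 30.8, 13.2 and 23.9 CPM, but dorsal library 1 was close to ventral library 1 (0.92 ± 0.34, adjusted p = 0.407).

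Glial and vessel markers gave 0 calls by edgeR in the lists of oligodendrocytes, their precursors, astrocytes, microglia, endothelial and mural cells, with 6, 0, 1, 0, 0 and 2 genes at an unadjusted p under 0.05. DESeq2 called 2 oligodendrocyte markers and limma-voom 0, and neither called a member of the other lists. Of 18 oligodendrocyte markers 17 had positive log2 fold changes and 9 were higher in every dorsal library, with a median of 0.82, and their sum was 7867 to 12481 CPM in dorsal and 5113 to 5964 CPM in ventral libraries. MOBP, a myelin protein, stood at 459.8, 856 and 677 CPM in dorsal and 313, 301 and 356 CPM in ventral libraries (1.04 ± 0.27, adjusted p = 0.154), and MYRF, the transcription factor of myelination, gave 0.78 ± 0.21 (adjusted p = 0.174). All 15 ependymal markers, genes of the ciliated lining of the ventricles, had positive log2 fold changes (median 0.68), with FOXJ1 at 1.22 ± 0.53 (adjusted p = 0.579). Choroid plexus markers went both ways: of 13 tested 0 were called by edgeR, 3 by DESeq2 and 0 by limma-voom, 6 had an unadjusted p under 0.05, 3 were higher in every dorsal and 4 in every ventral library, and the median was -0.24. TTR, the thyroid hormone carrier made by the choroid plexus, stood at 361, 415 and 943 CPM in dorsal and 32.5, 53.1 and 35.0 CPM in ventral libraries (3.83 ± 0.98, adjusted p = 0.144), and CLIC6, another gene of that tissue, gave 1.58 ± 0.45 (adjusted p = 0.203). The transport genes SLC5A5 and SLC13A4 of the same list were higher in every ventral library, at -2.08 ± 0.56 and -0.93 ± 0.30 (adjusted p = 0.172 and 0.284). DBH, which makes noradrenaline, gave 39.4, 16.1 and 11.2 and 4.64, 3.12 and 1.04 CPM (2.93 ± 0.77, adjusted p = 0.157). Of 19 tested genes of adult neurogenesis 0 were called by edgeR, 3 by DESeq2 and 0 by limma-voom, 1 had an unadjusted p under 0.05 in the dorsal and 3 in the ventral direction, and 2 were higher in every dorsal and 5 in every ventral library, with a median of 0.18. EOMES, a marker of neuronal progenitors, gave 2.81 ± 0.92 (adjusted p = 0.314), CALB2, calretinin, -1.65 ± 0.49 (adjusted p = 0.227) and STMN1, a regulator of microtubules, -0.76 ± 0.20 (adjusted p = 0.167).

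**Figure D5:**
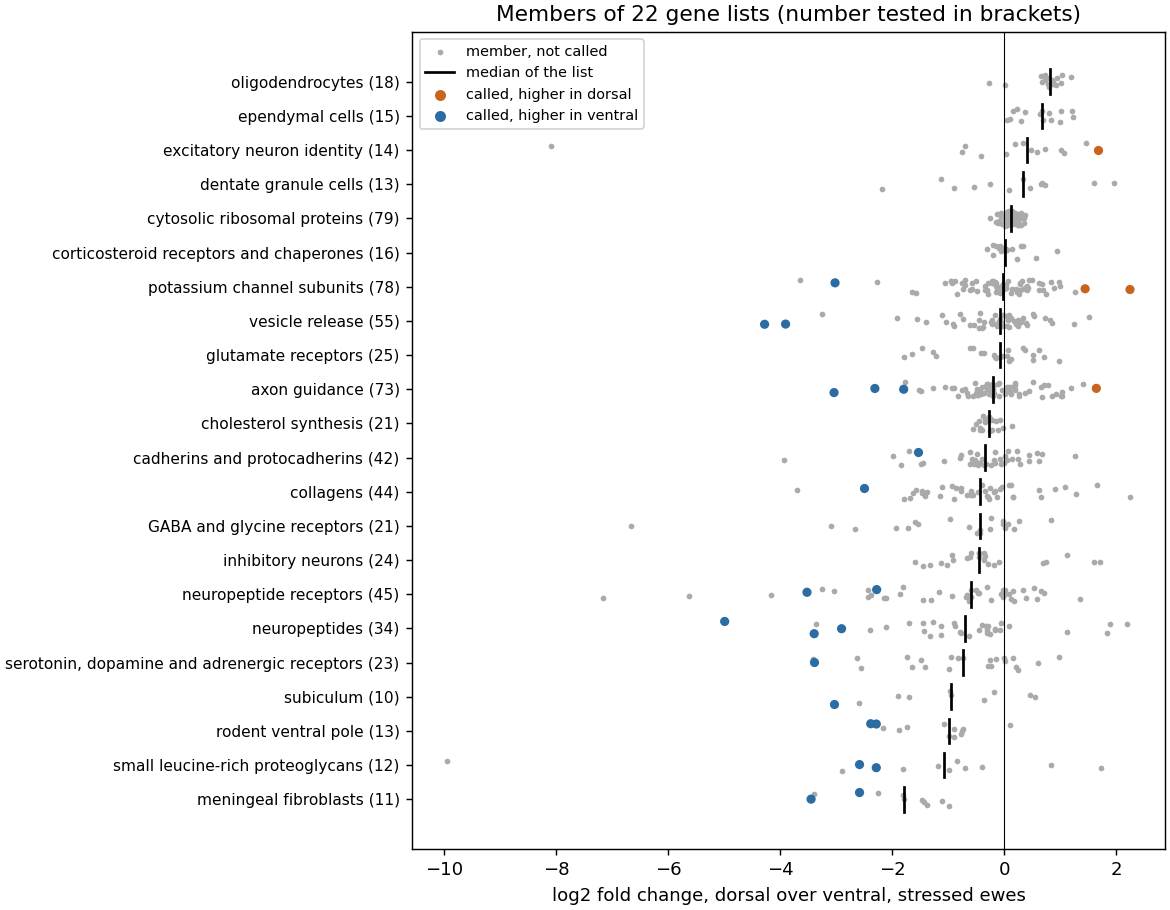
Log2 fold changes, dorsal over ventral in stressed ewes, of the tested members of 22 gene lists, ordered by their median (black bars), with the number of tested members in brackets. Grey points are members that were not called, blue and orange points called members higher in ventral and dorsal tissue. The medians run from -1.79 for meningeal fibroblasts to 0.82 for oligodendrocytes.

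Whether the regional difference itself differed between stressed and control ewes was tested for each gene. By edgeR, DESeq2 and limma-voom 0 genes were called, 46 genes had an unadjusted p under 0.05 in edgeR, the smallest p was 0.0049 and the smallest adjusted p 1.00. The median SE of this difference over all genes was 0.56, against 0.40 for the regional difference. A count of 0 here does not show that the regional difference was the same in both conditions. The 5 genes called in stressed but not in control ewes were POSTN, FMOD, DCN, TP53I11 and LOC105604443. POSTN stood at 0.788, 1.75 and 3.13 CPM in dorsal and 4.78, 13.9 and 13.7 CPM in ventral libraries of control ewes, with a log2 fold change of -2.52 ± 0.58, and the unadjusted p for the difference from stressed ewes was 0.0537. For FMOD the log2 fold change in control ewes was -1.49 ± 0.42 and that p was 0.0909, for DCN -1.73 ± 0.39 and 0.321, for TP53I11 -1.76 ± 0.40 and 0.313, and for LOC105604443 1.07 ± 0.24 and 0.171. TP53I11 overlaps TSPAN18 in the RefSeq annotation, and LOC105604443 overlaps KCTD1.

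The 5 genes with the smallest p for that difference were CAMK1G, POMC, MYLK2, VGLL2 and HSD17B3, and for each the adjusted p was 1.00. CAMK1G, a calmodulin-dependent kinase, had a log2 fold change of -0.18 ± 0.15 in stressed and -0.91 ± 0.15 in control ewes (unadjusted p of the difference 0.0049), with 68.0, 55.5 and 58.8 CPM in dorsal and 65.6, 75.4 and 65.5 CPM in ventral libraries of stressed ewes. POMC, the precursor of the pituitary hormone corticotropin, gave -0.64 ± 0.90 and 3.49 ± 0.89 (unadjusted p = 0.00733). Beside it the summed level of pituitary markers, a list that holds POMC, was 5.62 to 12.3 CPM in dorsal and 4.95 to 26.8 CPM in ventral libraries of stressed ewes, and 113 to 152 and 7.89 to 100.6 CPM in those of control ewes. Its part in the POMC values was not tested. MYLK2, a myosin kinase, gave -1.22 ± 0.56 and 1.35 ± 0.55, VGLL2, a transcriptional cofactor, -2.80 ± 0.67 and -6.12 ± 0.81, and HSD17B3, a steroid dehydrogenase, -1.94 ± 0.62 and 0.73 ± 0.55 (unadjusted p = 0.00758, 0.0079 and 0.00799). These 3 genes had few counts in stressed ewes. MYLK2 had 5, 7 and 4 in dorsal and 20, 22 and 18 in ventral libraries. VGLL2 had 2, 4 and 4 against 25, 55 and 39, and HSD17B3 2, 2 and 2 against 9, 12 and 19.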

How the data were processed

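Gene counts from RNA sequencing of polyadenylated RNA (TriReagent extraction, TruSeq stranded mRNA kit, per the labels' protocols) were deposited by the authors as whole numbers per gene, 1 column for each of 12 libraries. The submitters' processing notes name featureCounts 2.0.0, TopHat2 2.1.1 with Bowtie2 2.3.5.1, SAMtools 1.9, FastQC and bcl2fastq 2.20, without roles or settings. Build, annotation and strand setting of the counting were not given in the sources used here, so no coordinates are printed, and antisense or overlapping genes and close copies cannot be told apart. Of 33609 genes 9337 had no count, and 471 placeholder names were replaced by symbols from RefSeq (ARS-UI_Ramb_v3.0), matched by gene ID.

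Counts were filtered with filterByExpr by group (17806 genes left), scaled with TMM and fitted in edgeR 4.0.16 (R 4.3.3) with robust quasi-likelihood, 1 mean for each of 4 groups and 8 residual degrees of freedom. The F test used Benjamini-Hochberg adjustment, and SE was taken as the size of the log2 fold change over the root of F. Fold changes come from the fit, and levels are TMM-scaled CPM without a prior count. The fit was tested on simulated data. No columns held the same library: within groups the lowest chi-square per degree of freedom was 19.72. P-values measure the spread between these pools of ewes.

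The 59 gene lists, the comparisons and the genes were chosen with earlier results of these data known. Named by rule were the 15 highest and 15 lowest log2 fold changes among called genes that have a symbol, no overlap of regions and a mean log2 CPM not under 1, in each list the 4 or fewer members of smallest p, the 5 genes with the smallest p for the difference between conditions, and CRH, CRHR1, CRHR2, ADCYAP1, VIPR1, NR3C1, NR3C2, FKBP5, BDNF, WFS1, PROX1 and TTR. Not every such gene is described, and the other genes, all remaining called ones among them, were chosen after their values were seen. Lists share members. The alternatives were DESeq2 1.42.0, limma-voom (limma 3.58.1), RLE size factors, a filter requiring 1 CPM in 3 libraries, all genes with a count, the stress libraries alone, a replicate block, thinned counts, covariates for choroid plexus, meninges and the first residual factor, and leaving out each library.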

Additional observations from a re-analysis of the deposited data

How the results depend on the processing

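All 79 genes called in stressed ewes kept their direction under every alternative that was run, and kept an unadjusted p under 0.05 in all of them except the fit with the meningeal covariate. The genes were chosen in these same libraries, so that their kept direction is no separate support. The numbers called in dorsal and ventral tissue, 15 and 64 in the fit reported, moved by over 1.5 times with DESeq2 (195 and 385), limma-voom (7 and 20), the 6 stress libraries alone (0 and 0, with 531 and 851 at an unadjusted p under 0.05), the choroid plexus covariate (62 and 181), the first residual factor (669 and 920) and the meningeal covariate (0 and 0, with 33 and 76 at an unadjusted p under 0.05). In control ewes 178 became 728 with DESeq2, 285 with the choroid plexus covariate, 2003 with the first residual factor and 0 with the meningeal covariate (290 at an unadjusted p under 0.05). The cause of these shifts was not tested. Leaving out 1 library in turn gave 0 to 40 dorsal, 1 to 119 ventral and 2 to 319 control calls. The difference between conditions gave 0 calls under every alternative. With a replicate block, 11 dorsal and 46 ventral genes were called, and 30 of the 79 kept their call. Libraries with the same number in stressed ewes had deviations that correlated at 0.208, -0.233 and 0.761 and those in control ewes at 0.717, -0.119 and 0.373. With both signs and so few libraries, these values cannot settle whether the numbers pair the samples. The meningeal covariate was chosen after seeing the data. It turned the log2 fold change of NR3C1 to 0.0786, PROX1 to -0.23, CRHR1 to 0.0124, CRHBP to 0.45, FOS to 0.22, CAMK1G to 0.11, CRABP2 to 0.45, CALB2 to 0.19, STMN1 to 0.12, SLC13A4 to 0.62 and FOXJ1 to -0.11, and the choroid plexus covariate turned FKBP5 to -0.0406. None of these genes was called. Without 1 library in turn NR3C1 ranged from -0.41 to 0.20, FKBP5 from -0.0642 to 0.34 and POMC from -1.51 to 0.28, with both signs in each. Every dorsal library of stressed ewes was shallower than every ventral one, and with all libraries thinned to one depth 17 dorsal and 60 ventral genes were called. Of the 79 genes 72 kept their call, 15 dorsal and 57 ventral, with a highest adjusted p of 0.121 by edgeR. Calls were lost for RGS18, CHRM4, EPHA8, VAV2, LAYN, LDB2 and LOC114116607, all higher in ventral tissue.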

Other observations

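The gene groups that follow, not described above, held no gene called by edgeR in stressed ewes, and no list was tested as a whole. Of 21 tested genes of cholesterol synthesis 20 had lower levels in dorsal tissue, with a median log2 fold change of -0.28. By edgeR 0 were called, 4 had an unadjusted p under 0.05 and 5 (23.8%) were higher in every ventral library. DESeq2 called 3 and limma-voom 0. SQLE and LSS, which act where the sterol ring is formed, gave -0.44 ± 0.14 and -0.51 ± 0.16 (adjusted p = 0.274 and 0.271). In control ewes the list median was -0.36. Of 79 tested genes for cytosolic ribosomal proteins, whose many copies make their counts uncertain, 69 had higher levels in dorsal tissue, with a median of 0.12 and 0 at an unadjusted p under 0.05 by edgeR, 0 called by edgeR, DESeq2 or limma-voom, and a median of 0.01 in control ewes.

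Pathways that pattern tissue held no called gene. Of 51 tested genes of the Wnt pathway 36 had higher ventral levels, 0 were called by edgeR or limma-voom and 2 by DESeq2, and 7 had an unadjusted p under 0.05. WNT4, a secreted Wnt ligand, stood at 8.46, 7.91 and 4.25 CPM in dorsal and 25.5, 43.2 and 19.3 CPM in ventral libraries (-2.09 ± 0.41, adjusted p = 0.0682). WNT2, another ligand, was higher in every dorsal library (1.05 ± 0.38, adjusted p = 0.392). In the retinoid pathway, with 21 tested genes, 0 were called by edgeR or limma-voom, 5 by DESeq2, and 6 had an unadjusted p under 0.05, 4 higher in ventral and 2 higher in dorsal tissue (TTR among them). In 4 members every ventral library was above every dorsal one, and in 3 the reverse held. CRABP2, which carries retinoic acid in the cell, stood at 11.4, 6.59 and 6.70 and 26.7, 34.7 and 23.9 CPM (-1.78 ± 0.42, adjusted p = 0.111). ESR1, the oestrogen receptor alpha, stood at 2.49, 4.82 and 4.49 CPM in dorsal and 8.01, 8.30 and 10.6 CPM in ventral libraries (-1.19 ± 0.33, adjusted p = 0.187), with no overlap. The meningeal markers described in the report were higher in the ventral libraries too, and their part in the WNT4 and CRABP2 levels was not tested beyond the fit with the meningeal covariate.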
